A study of Danio rerio with 2 samples.

Results

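The genes described here encode the contractile apparatus of muscle and the transcription factors that switch it on. Members were all probe sets of the array whose single gene symbol began with myh, myl, tnnc, tnni, tnnt, tpm1 to tpm4, acta, actc, actn, ckm, pvalb, myod, myf5, myf6, mef2, ttn, cacng1 or atp2a, or was myog or a desmin symbol. This gave 78 of 15502 probe sets, which stood for 63 of 8793 named genes. The rule used names only and no signal.

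The series compared zebrafish embryos (Danio rerio) at 24 hours after fertilization. One group was injected with about 5 ng per embryo of a morpholino against the gene DrC1q-like. The other was injected with the same amount of a mismatched control, which differs from that morpholino at 5 bases. Morpholinos are antisense oligomers used to stop a transcript from being translated or spliced. Both groups therefore consisted of injected embryos, and no uninjected embryos are among the samples used here. The sources used here do not state strain, genotype or how many embryos went into each array. The knockdown was not checked. No probe set carried the name of the target, and an RNA signal need not fall where a morpholino stops translation. The study asked which genes and pathways were affected by the C1q-like gene.

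Skeletal muscle contracts when myosin heads of the thick filament pull on actin of the thin filament. Calcium bound by troponin moves tropomyosin off the actin and permits this, and calcium pumps then return the ion to the sarcoplasmic reticulum. In zebrafish embryos slow fibres form from cells beside the notochord and migrate to the surface of the myotome, whereas fast fibres form in its depth. Each fibre type, like the heart, uses its own paralogues of many of these proteins. Myod and its relatives start the muscle programme in the somites, and Mef2 factors act with them on contractile genes.

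Each group was represented by 1 Affymetrix array hybridized with RNA of whole embryos. There were thus no replicates, no test was possible, and "higher" or "lower" below compares the C1q-like morpholino array with the control array. Hybridization and scanning took place on another day for each array, so an effect of the day and one of the morpholino cannot be told apart. In whole embryos, fewer muscle cells and less RNA per muscle cell cannot be told apart. The median signal was 34.7 on the array of the C1q-like morpholino and 32.0 on that of the control. Signals are MAS5 values on a linear scale. Any signal under 33.3, the median of both arrays, was set to this floor to form ratios. A ratio with 1 signal below the floor is a bound. A gene reaching the floor on at least 1 array was called measured, and where a gene had several probe sets the one brightest on average was used.

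Of the 63 member genes 51 were measured, 43 of them above the floor on both arrays. The measured members included 21 genes classed as fast skeletal, 6 as slow skeletal, 5 as cardiac, 6 as nonmuscle or smooth muscle and 4 as myogenic regulators, with 9 left unclassified. The label covers most but not all members, since the name rule also took nonmuscle myosins and actinins. It further took mylipa, which encodes a ubiquitin ligase, and mylka, a myosin light chain kinase gene. The first read 26.5 against 34.9 and the second lay below the floor on both arrays. A mean signal of 1000 or more was reached by 22 of the 51 measured members (43.1%) and by 398 of 5907 other measured genes (6.74%).

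Muscle genes differed little between the arrays. The median log2 ratio of C1q-like over control morpholino was 0.13 over the 51 measured members, against 0.01 over all 5958 measured genes. Of the members 38 had ratios above 1 and 13 below, where 50.9% and 48.8% of all measured genes did. This excess was not kept after quantile normalization, with 27 above and 23 below 1, or lowess centring, with 26 and 25. After centring each array on its median, which lowered all ratios, the members were again 27 and 23. These near-even counts mixed classes. The 32 measured fast, slow and cardiac genes were 21 above and 11 below 1 as deposited. Quantile normalization made them 12 and 20, and lowess made them 11 and 21, where 47.1% and 47.7% of all measured genes were below 1. With centred arrays they were 14 and 18, against 57.9% of all below 1. The nonmuscle and smooth muscle genes stayed at 5 above and 1 below under each scaling. They were 5 above and 3 below with the floor lowered to the 25th percentile of signals, and also with no floor. Those settings admit acta2, with 9 against 20.7, and myh9a, with 15.5 against 19.6, both lower. The genes above 1 were the light chain genes myl9b, myl6 and myl12.1 with actn1 and tpm4b. As deposited, 7 members, or 13.7%, were at least 1.5-fold higher, against 10.2% of all measured genes. At least 1.5-fold lower were 2 members, or 3.92%, against 14.5%. The shares changed with signal. With a mean signal of 1000 or more, 18.3% of other genes were 1.5-fold higher and 2.26% lower, against 4.55% and 0% of 22 members. Between 100 and 1000 these were 7.76% and 17.7%, against 41.7% and 0% of 12 members. Below 100 they were 11.1% and 13.6%, against 5.88% and 11.8% of 17 members. The higher members between 100 and 1000 were not all muscle genes. They were the nonmuscle or smooth muscle genes actn1 and myl6, the unclassified ckmt1, the fast gene cacng1a and the cardiac gene myl7. At least 2-fold higher was 1 member, myl9b, against 1.68% of all measured genes, and no member was at least 2-fold lower, against 4.1%. The log2 ratios ran from -0.97 for myh10 to 1.2 for myl9b, both of them genes of nonmuscle or smooth muscle myosin.

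**Figure D1:**
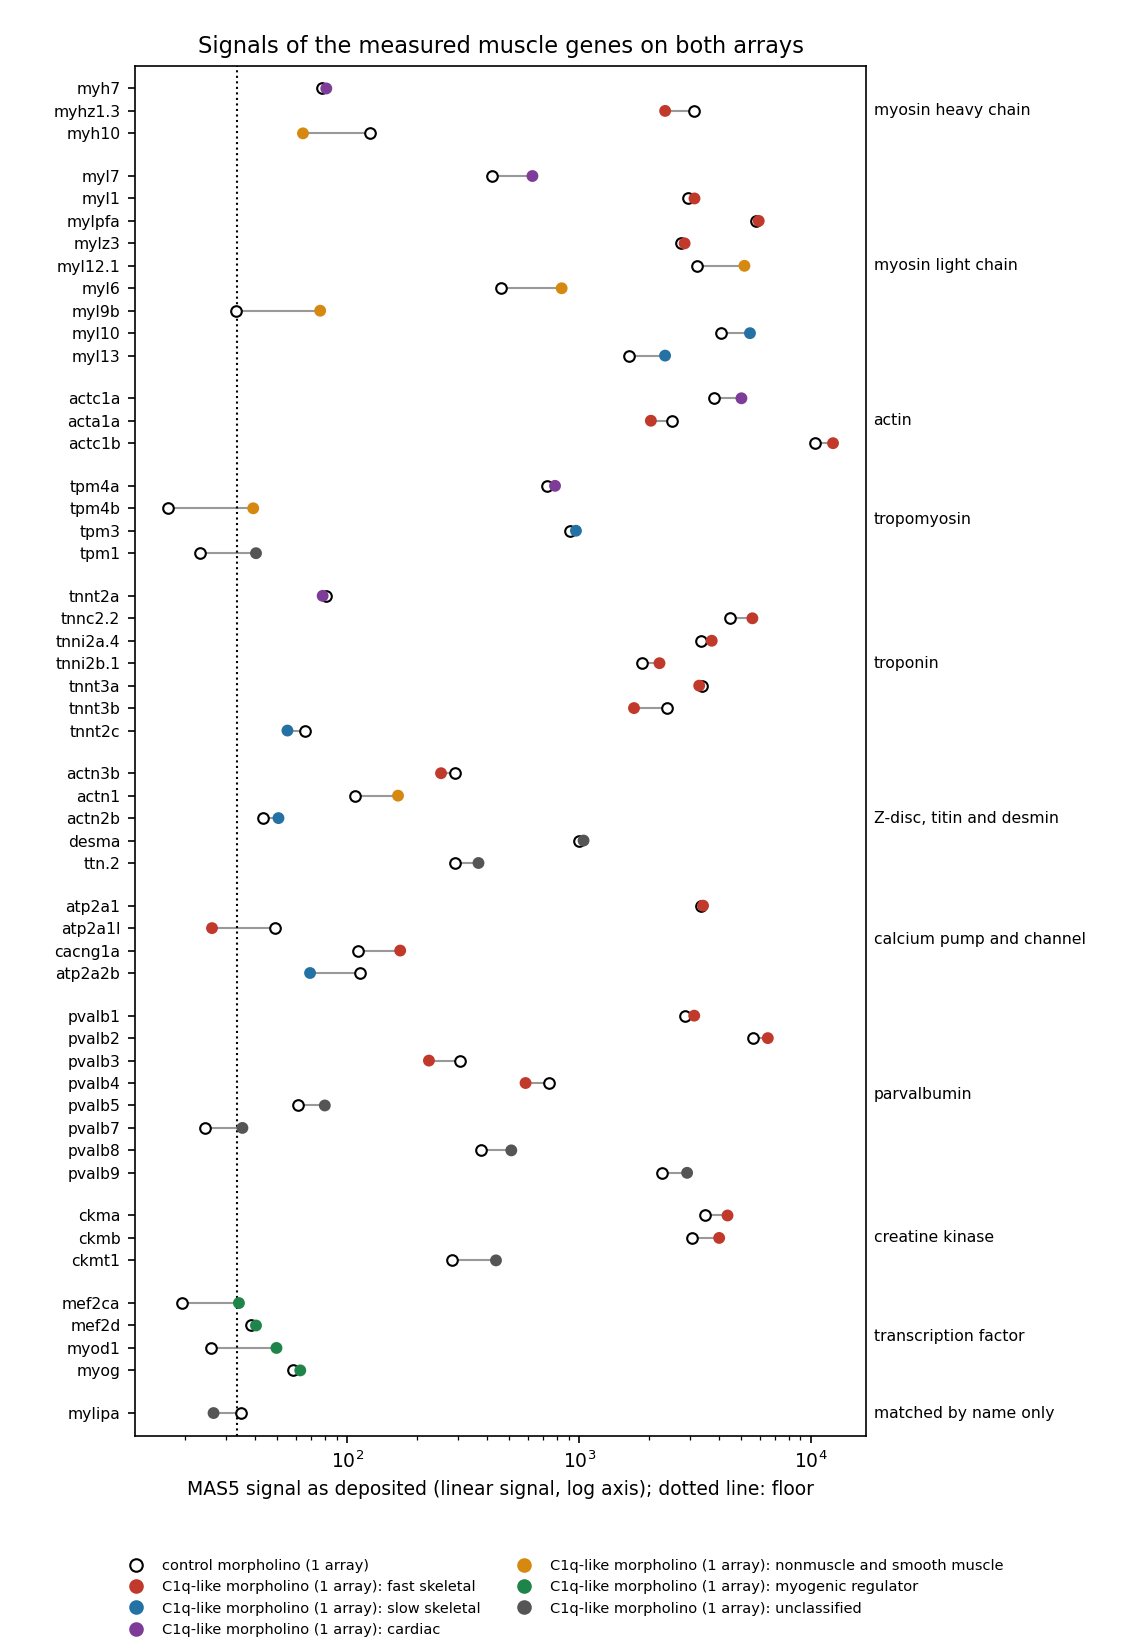
MAS5 signals (horizontal log axis) of the 51 measured member genes, grouped by role, with an open circle for the control morpholino array and a filled circle, coloured by class, for the C1q-like morpholino array. The 2 circles of a gene lie close together for nearly all contractile genes, the widest gaps above the floor (dotted, 33.3) being those of myh10, with 64.4 against 125.8, and myl6, with 840.3 against 460.3.

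Myosin heavy chains, the motor proteins of the thick filament, went in both directions. The fast heavy chain gene myhz1.3 read 2348.4 with the C1q-like morpholino against 3134.9 with the control, 1.33-fold lower. A probe set that names 6 heavy chain genes together (myha, myhz1.1, myhz1.2, myhz1.3, myhz2 and myhc4) read 4535.3 against 5620.7, 1.24-fold lower. It is given as such, since its signal cannot be divided among them. Both fast heavy chain probe sets thus lay below the control, and further below after the other scalings, at log2 ratios between -0.53 and -0.69 for myhz1.3 and between -0.43 and -0.70 for the shared one. The cardiac heavy chain gene myh7 read 81.2 against 77.6, a log2 ratio of 0.07 that was -0.05 when each array was centred on its median. A dim probe set naming both myh7 and myh7l read 48.6 against 25, at least 1.46-fold higher, and was between 0.46 and 0.54 on the log2 scale under the other scalings. The nonmuscle heavy chain gene myh10, whose product drives cell shape and division, read 64.4 against 125.8, 1.95-fold lower and the lowest ratio of all members. The second nonmuscle heavy chain, myh9a, lay below the floor on both arrays.

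Myosin light chains, small subunits clasped around the neck of the heavy chain, had ratios above 1 in 9 of 9 genes. Of all measured genes 50.9% had ratios above 1, and of non-member genes with a mean signal of 1000 or more 78.9% did. The size of the light chain ratios differed by class. Among regulatory light chains, the fast gene mylpfa read 5947.4 against 5806.1, a log2 ratio of 0.03. The slow gene myl10 read 5452 against 4078.4, 1.34-fold higher. The cardiac gene myl7 read 628.7 against 419, 1.5-fold higher. Fast muscle thus gave the smallest ratio of these 3. Regulatory light chains of nonmuscle and smooth muscle myosin were also above 1. The gene myl12.1 read 5160.5 against 3236.2, 1.59-fold higher, and myl9b read 76.4 against 33.1, at least 2.29-fold higher because its control signal lay just below the floor. The log2 ratio of myl12.1 was 0.67 as deposited, above the 0.59 of myl7, but 0.34 and 0.32 after quantile and lowess scaling, below the 0.62 and 0.59 of myl7.

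Essential light chains showed the same arrangement. The fast genes myl1 and mylz3 had log2 ratios of 0.09 and 0.05, with signals of 3142.8 against 2944.6 and of 2849.4 against 2747.3. The gene myl13, listed as slow, read 2346.7 against 1645.5, 1.43-fold higher. The nonmuscle gene myl6 read 840.3 against 460.3, 1.83-fold higher. The 3 fast light chains therefore lay between 0.03 and 0.09 and the 6 others between 0.42 and 1.2. The fast genes turned below 0 under each other scaling, between -0.08 and -0.02 after centring, between -0.31 and -0.16 after quantile normalization and between -0.38 and -0.20 after lowess centring. The others stayed above 0, the lowest of them, myl10, at 0.30, 0.08 and 0.04. The gap between the highest fast and the lowest other light chain was 0.32 as deposited and after centring and 0.24 under the other scalings. Second probe sets narrowed it, as one of mylpfa gave 0.27, with signals of 4567.9 and 3781. The other probe sets of myl12.1 gave 0.48 and, with dim signals of 35.5 and 7.2, at least 0.09. That bound lies below the 0.27 of mylpfa, so it cannot tell whether the fast and other light chains overlap. The grouping by class within the light chains was noticed in these data, and with 1 array a group it has no replicate check.

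**Figure D2:**
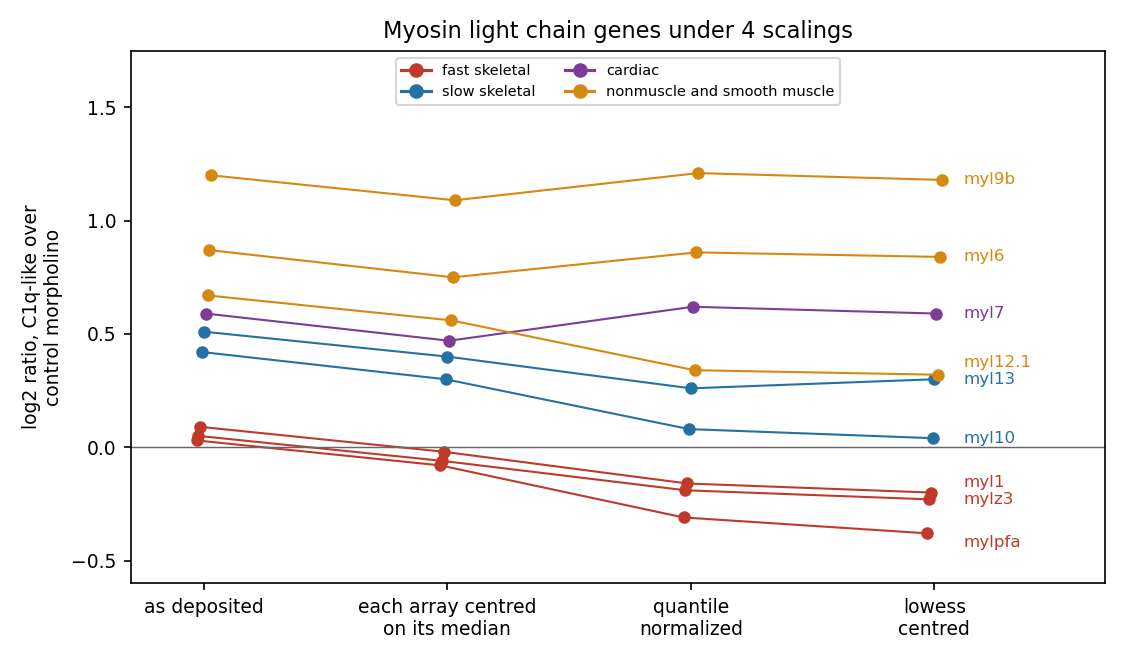
Log2 ratio of C1q-like over control morpholino (vertical axis) of the 9 myosin light chain genes as deposited and under 3 other scalings, 1 line per gene, coloured by class. The 3 fast genes (myl1, mylz3, mylpfa) lie below the 6 others under all 4 scalings, above 0 as deposited and below 0 under the rest.

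The thin filament gave small differences in both directions. The skeletal actin gene acta1a was 1.23-fold lower, with signals of 2038.2 and 2508.2, while actc1b, an alpha actin gene of skeletal muscle listed here as fast, read 12436.9 against 10428.5, 1.19-fold higher. A second bright probe set of actc1b gave 0.30 beside 0.25. The names of these 2 differ only in the ending, and the one used is of a type that shares probes (_x_at). Their closeness is therefore no independent check. The other probe sets of actc1b were below the floor, with 7.7 against 2 and 4.5 against 2.9. Quantile normalization put the log2 ratio of actc1b at -0.33 and lowess centring put it at -0.28, so its direction depended on the scaling. The ratio of acta1a remained below 0, at -0.30 as deposited and between -0.42 and -0.59 under the other scalings. The actin gene actc1a, listed here as cardiac, read 5009.5 against 3813.3, 1.31-fold higher, and was at 0.06 and 0.03 after those scalings. The smooth muscle actin gene acta2 was below the floor on both arrays.

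Troponin, the calcium switch of the thin filament, had a median log2 ratio of -0.05 over 7 measured of 10 genes. The fast calcium-binding subunit tnnc2.2 read 5584.5 against 4476.1, 1.25-fold higher as deposited but at -0.03 and -0.07 after quantile and lowess scaling. The inhibitory subunits tnni2a.4 and tnni2b.1 were at 0.15 and 0.25, the first of them turning to -0.14 and -0.17. A probe set shared by tnni2a.4 and tnni2a.2 read 5189 against 4605.5, and a second one of tnni2a.4 gave -0.06. The tropomyosin-binding subunit went the other way as deposited. The gene tnnt3b read 1723.6 against 2391.2, 1.39-fold lower, and its paralogue tnnt3a read 3293.3 against 3399.7, a log2 ratio of -0.05. Both stayed below 0 under each scaling, tnnt3b at -0.47 as deposited and between -0.59 and -0.69 under the others. The gene tnnt2c, listed as slow, was at -0.24 with dim signals of 55.2 and 65.4. The cardiac gene tnnt2a, whose loss leaves zebrafish hearts silent, was at -0.05, with 78.3 against 80.8, and at 0.08 and 0.06 after quantile and lowess scaling. Below the floor on both arrays were tnnc1a, tnni2a.2 and tnni2a.3.

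Tropomyosins, which lie along the actin filament, had ratios slightly above 1 in 4 of 4 genes, against 50.9% of all measured genes. The brighter pair, tpm3 and tpm4a, read 968.5 against 912.2 and 786.8 against 729.4, log2 ratios of 0.09 and 0.11. After centring these were -0.03 and -0.01. The dim genes tpm1 and tpm4b had control signals below the floor and ratios of at least 1.21 and 1.18.

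Of the proteins that anchor the filaments, the nonmuscle alpha-actinin gene actn1 was highest, with 165.5 against 108.4, 1.53-fold higher. The fast muscle gene actn3b read 253.7 against 290.4 and actn2b read 50.5 against 43.1, log2 ratios of -0.19 and 0.23. The nonmuscle paralogue exceeded both muscle paralogues under all 4 scalings. Desmin, the intermediate filament of muscle cells, read 1044.5 against 999.7 by desma, a log2 ratio of 0.06 that was between -0.05 and -0.04 under the other scalings. The probe sets of titin, the spring of the sarcomere, disagreed. For ttn.2 the brighter one read 368 against 292.6 and a second 259.9 against 315, log2 ratios of 0.33 and -0.28, and 2 more were below the floor.

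Genes of calcium pumps and channels went both ways. The channel subunit gene cacng1a, part of the voltage sensor of skeletal muscle, read 169.1 against 110.7, 1.53-fold higher. It was the only fast member past 1.5-fold as deposited, but was at 0.49 on the log2 scale after centring, while after lowess centring myhz1.3, tnnt3b and atp2a1l were also past 1.5-fold, all lower. The calcium pump gene atp2a1 of fast fibres read 3421.9 against 3352.9, a log2 ratio of 0.03 that was between -0.09 and -0.29 under the other scalings. The related atp2a1l was at least 1.46-fold lower, with 26.1 against 48.7. The pump gene atp2a2b, listed as slow, read 69.1 against 113.6, 1.64-fold lower, and atp2a2a was below the floor on both arrays.

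Parvalbumins, soluble calcium buffers that speed relaxation in fish fast muscle, were divided. The genes pvalb1 and pvalb2 read 3134 against 2873.3 and 6509.4 against 5645.9, log2 ratios of 0.13 and 0.21. Their direction turned after quantile and lowess scaling, to -0.14 and -0.17 for pvalb1 and to -0.09 and -0.22 for pvalb2. The genes pvalb3 and pvalb4 were lower under all 4 scalings, 1.37-fold and 1.27-fold as deposited, with signals of 225 against 307.2 and of 587.2 against 743.9. The remaining measured parvalbumins, not classed by fibre type, lay above 0. These were pvalb9 at 0.36, pvalb8 at 0.44, pvalb5 at 0.39 and the dim pvalb7 at 0.08. The first read 2920.9 against 2279.1 and the second 509.7 against 376.9, and pvalb6 was below the floor on both arrays. Adjacent parvalbumin genes of the RefSeq gene table had ratios on both sides of 1. In one run of neighbours pvalb9, pvalb3 and pvalb2 were at 0.36, -0.45 and 0.21, and in the other pvalb8, pvalb4, pvalb1 and pvalb5 were at 0.44, -0.34, 0.13 and 0.39.

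Creatine kinases, which buffer the energy supply of cells, had ratios above 1 in 3 of 3 measured genes. Of all measured genes 50.9% had ratios above 1, and of non-member genes with a mean signal of 1000 or more 78.9% did. The muscle genes ckma and ckmb read 4363.2 against 3492.8 and 4016.1 against 3062.5, 1.25-fold and 1.31-fold higher. The mitochondrial gene ckmt1, not classed as a muscle gene here, read 437.8 against 283.9, 1.54-fold higher. After quantile and lowess scaling ckma turned to -0.03 and -0.02, while ckmb was at 0.09 and 0.07 and ckmt1 at 0.71 and 0.68. The mitochondrial gene ckmt2a was below the floor on both arrays.

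The myogenic transcription factors were dim and gave little information. The somite determination gene myod1 read 49.5 against 25.9, at least 1.49-fold higher because the control signal was below the floor. The differentiation factor gene myog read 62.7 against 58.4, a log2 ratio of 0.10, and mef2d read 40.4 against 38.3, at 0.08. Centring turned these to -0.01 and -0.04. The gene mef2ca read 34.1 against 19.3, barely above the floor. Below the floor on both arrays were myf5 and myf6, which neighbour each other in the RefSeq table, and mef2aa. With the floor at 93.1, the 75th percentile of signals, none of the 7 regulators was measured.

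Classes were assigned from general knowledge of the gene symbols, with earlier results of these data known. For tpm3, tnnt2c, actn2b, atp2a2b and myl13, which make up 5 of the 6 slow genes, the class is uncertain in zebrafish. The fast list also holds acta1a, actc1b, ckma, ckmb and cacng1a, described above as genes of skeletal muscle or of muscle. Whether these are particular to fast fibres was not tested. The class of actc1a, listed as cardiac, was not tested. Its 5009.5 against 3813.3 lay far above the 628.7 against 419 of myl7. By class, the median log2 ratio was 0.05 for the 21 fast genes, 0.16 for the 6 slow genes and 0.11 for the 5 cardiac genes. It was 0.64 for the 6 nonmuscle and smooth muscle genes and 0.09 for the 4 myogenic regulators. Ratios above 1 were found in 13 of 21 fast, 4 of 6 slow, 4 of 5 cardiac and 5 of 6 nonmuscle and smooth muscle genes. The share was 50.9% over all measured genes. It was 78.9% over non-member genes with a mean signal of 1000 or more, the range that held 16 of the 21 fast genes. Of the 32 measured genes of the fast, slow and cardiac classes 3 were past 1.5-fold in either direction, namely cacng1a, myl7 and atp2a2b, against 24.7% of all measured genes. Which genes these were depended on the scaling and on the floor. After centring they were atp2a1l, atp2a2b and tnnt3b (25.8% of all genes), and lowess centring added atp2a1l, myhz1.3 and tnnt3b to the first 3 (23.8%). Quantile normalization gave cacng1a, myl7, acta1a, myhz1.3 and tnnt3b (23.9%). Of the 6 nonmuscle and smooth muscle genes 5 were past it as deposited, 4 higher (myl9b, myl6, myl12.1 and actn1) and 1 lower (myh10). Here too the scaling mattered, since centring put actn1 at 0.49 and myl12.1 at 0.56, short of 1.5-fold. Quantile and lowess scaling put myl12.1 at 0.34 and 0.32, and the mean over its probe sets was 0.42. The genes myl9b, myl6 and myh10 stayed past 1.5-fold under each scaling. The ranges of the fast, slow and cardiac classes overlapped, from -0.55 to 0.61, from -0.72 to 0.51 and from -0.05 to 0.59. With 1 array a group the order of their medians has no replicate check, and the medians of the fast and cardiac genes and of the regulators turned below 0 after centring, to -0.06, -0.01 and -0.01.

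**Figure D3:**
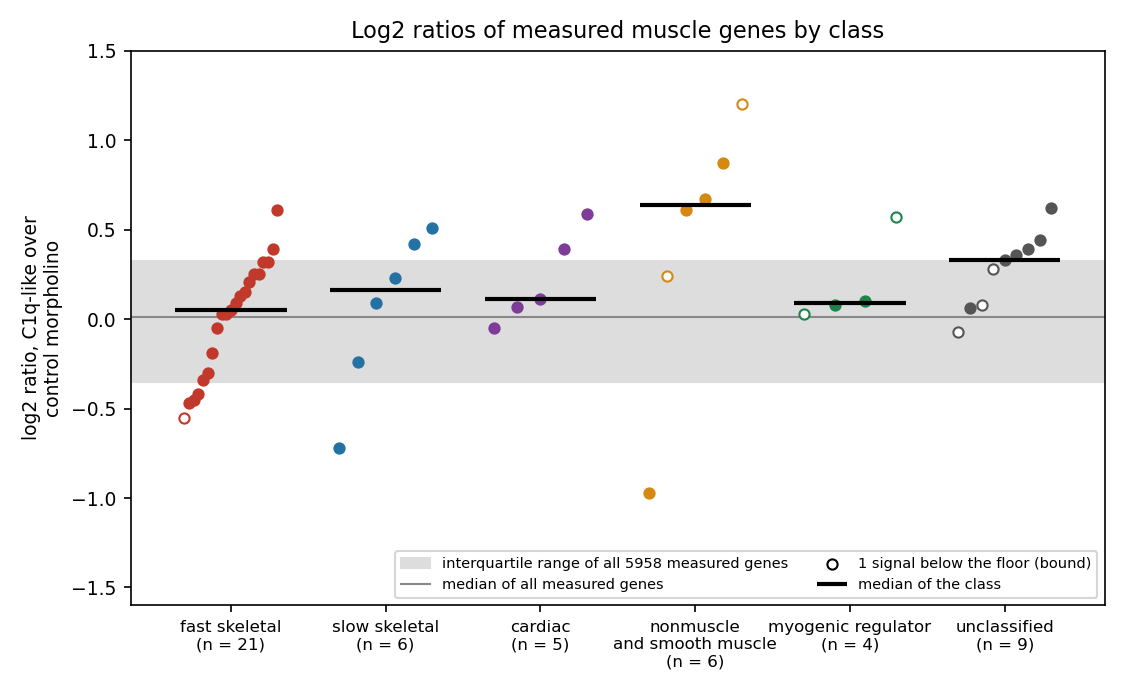
Log2 ratio of C1q-like over control morpholino (vertical axis) of the measured members by class, 1 circle per gene, open where 1 signal lay below the floor, with a black bar at the class median and a grey band for the interquartile range of all 5958 measured genes. Most fast, slow and cardiac genes lie in or near the band, while 4 of the 6 nonmuscle and smooth muscle genes lie above it and myh10 lies below it.

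The level of the fast genes relative to other genes depended on how the arrays were scaled, because ratios changed with signal across the whole array. Among measured non-member genes with a mean signal of 1000 or more, the median log2 ratio was 0.31 and 78.9% had ratios above 1 (n = 398). Between 100 and 1000 it was -0.06 (n = 2423), and below 100 it was 0.02 (n = 3086). The 16 fast genes with a mean signal of 1000 or more had a median of 0.11, with 12 above 1 (75%). They thus lay mostly above 1 as deposited, and yet their median was below that of other genes of like signal. The genes ckma, ckmb and tnnc2.2, at 0.32, 0.39 and 0.32, were above the 0.31 of those other genes.

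Lowess centring, which subtracts the trend of ratio with signal, put 18 of the 21 fast genes below 1 (median -0.23), where 47.7% of all measured genes were. Quantile normalization also put 18 of 21 below 1 (median -0.19), against 47.1%. The 3 fast genes above 1 were cacng1a, ckmb and tnni2b.1 under both. The slow genes had medians of 0.02 and 0.05 after lowess and quantile scaling, the cardiac genes 0.06 and 0.09, and the nonmuscle and smooth muscle genes 0.54 and 0.55. Centring each array on its median shifted the median of all measured genes by -0.11, and 12 of 21 fast genes were then below 1, against 57.9% of all. Which of these scalings is nearer to RNA amounts was not tested.

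**Figure D4:**
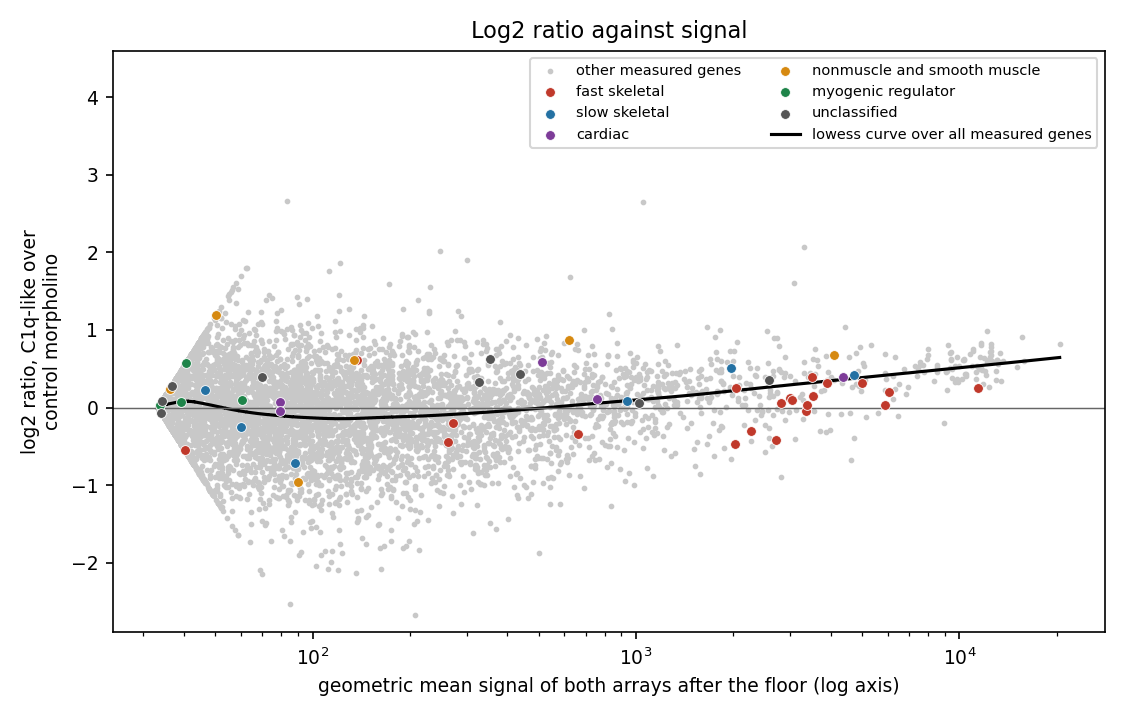
Log2 ratio of C1q-like over control morpholino (vertical axis) against the geometric mean signal of both arrays after the floor (horizontal log axis), with other measured genes in grey, members coloured by class and the lowess curve in black. The curve climbs with signal toward the bright end, and 18 of the 21 fast genes lie below it.

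Muscle genes outside the name rule were read from a list of 112 names, 2 of which were members. Of the others 51 were found on the array and 39 measured, with a median log2 ratio of 0.10. Of these, 21 were above and 18 below 1, where 50.9% and 48.8% of all measured genes were. The slow heavy chain gene smyhc1, chosen for mention after its values were seen, read 840.7 against 901.6, a log2 ratio of -0.10. The highest of the list was hspb1, a small heat shock protein gene of muscle and other tissues, at 2.30-fold higher (1252.7 against 545.2). The dystrophin gene dmd was at least 1.92-fold higher (64.1 against 28.6), though a second probe set was below the floor on both arrays. The ubiquitin ligase gene trim63a, which marks proteins of the sarcomere for degradation, was at 0.48.

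The brightest genes of the list were gamt, for creatine synthesis, at 0.58, the aldolase genes aldoaa and aldoab at 0.46 and 0.39, and the tropomyosin gene tpma at 0.28. The ratio of tpma turned to -0.04 after both quantile and lowess scaling, while gamt was at 0.21 and 0.19. Lowest was pygmb, a glycogen phosphorylase gene, at 1.95-fold lower (138.7 against 270.5), with a second probe set at -0.19. The gene jam3b, whose product is needed for fusion of fast muscle precursors, was 1.71-fold lower (121.4 against 208.2), and its second probe set gave -0.81. Next were dag1, which encodes the laminin receptor dystroglycan, at -0.65 and musk, the kinase that organizes the neuromuscular junction, at -0.58 with signals of 35.9 and 53.8.

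Markers of other tissues were read on the same arrays, where 50.9% of all measured genes were above 1 and 48.8% below. Of 9 measured neuron markers 8 were below 1, with a median log2 ratio of -0.65 and summed signals of 904.7 and 2216.3. Of these sums tubb5 alone gave 262.2 and 959.2. Probe sets differed, as elavl3, tubb5 and sncb were at -2.53, -1.87 and -0.92 by their brightest probe set. As means over measured probe sets they were at -0.97, -0.9 and -0.73. Of 8 epidermis markers 5 were above 1, with a median of 0.25 and summed signals of 23601.4 and 13210.1. Of these sums krt4 alone gave 17052.4 and 8631.3. Its log2 ratio was 0.98 as deposited, but 0.40 and 0.43 after quantile and lowess scaling. Among the epidermis markers tp63 was at -0.15, but at 0.39 as a mean over measured probe sets. Of 6 erythroid markers 4 were above 1, from -1.01 for slc4a1a to 1.16 for gata1a, with a median of 0.23 and summed signals of 23898.4 and 16937.3. The bright globin hbae3, with 15610.7 against 9913.6, was at 0.66 as deposited and 0.02 after quantile normalization. Of 5 notochord markers 3 were above 1, with a median of 0.16 and summed signals of 1157.9 and 1395.5. The part of these tissues in the values of the nonmuscle myosin genes, which many cell types express, was not tested.

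Probe sets of the same gene, read on the same arrays, gave a scale for disagreement between probe sets. This scale leaves out any variation among embryos and any error that the probe sets of an array share. In 789 genes more than 1 probe set was measured, and the median absolute difference in log2 ratio between the brightest pair of a gene was 0.36. It was 0.19 over the 21 genes for which both had a mean signal of 1000 or more. Among members, 5 genes had several measured probe sets, and their log2 ratios spanned 0.04 for actc1b, 0.22 for tnni2a.4, 0.24 for mylpfa, 0.58 for myl12.1 and 0.61 for ttn.2. The measured probe sets of actc1b have names that differ only in the ending, so their span is no independent check.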

How the data were processed

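The authors deposited 1 signal intensity per probe set and array on a linear scale, which the submitters' processing notes credit to MAS5. Its version and scaling target are not given in the sources used here. Means without the highest and lowest 2% of values were 98.8 and 99.4. The deposited files of the scanner and fluidics station hold other settings, of which 2 of 42 differed, both of them days. With 1 array per group the number of arrays limits the precision, and no p-value or standard error was computed.

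Gene names come from the platform annotation, brought up to date by Entrez number with the RefSeq table of assembly GRCz12tu, which held all 78 member probe sets. A single gene was named by 10795 probe sets, several genes by 135, and none by 4572. Signals were raised to a floor of 33.3 and the log2 ratio taken. Every measured member was named, and of the 51 further muscle genes the 4 highest, 4 lowest and 4 brightest. Members, lists and classes were chosen with earlier results of these data known, and the grouping by role and the signal ranges after the values were seen. Other settings tried were a floor of 12.2 (25th percentile) or 93.1 (75th), no floor with a pseudocount of 1, median centring, quantile normalization, lowess centring (span 0.3), means over probe sets, and leaving out probe sets that share probes (_x_at, _s_at, _a_at). The steps were tested on simulated data, made from the control signals with small noise and known fold changes in genes well above the floor. Changes in genes near the floor and a trend of ratio with signal were not part of that test. Calculations used pandas 2.3.3 and numpy 2.4.6 under Python 3.11.15, with statsmodels 0.14.6 for lowess, scipy 1.17.1 for ranks and matplotlib 3.10.9 for plots.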

Additional observations from a re-analysis of the deposited data

How the results depend on the processing

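Settings are compared with values as deposited above the floor of 33.3, and percentages in brackets are shares of all genes measured under the same setting. A median was taken to have moved at a change of 0.1 or more on the log2 scale. After centring each array, the medians of fast, cardiac and regulator genes and of the further muscle list turned to -0.06, -0.01, -0.01 and -0.02, and those of slow and of nonmuscle and smooth muscle genes were 0.04 and 0.52. Then 2 members were at least 1.5-fold higher (6.85%), 4 at least 1.5-fold lower (18.9%) and 1 at least 2-fold lower (5.9%). After quantile normalization the medians of all members, fast and slow genes were 0.02, -0.19 and 0.05, with 4 members 1.5-fold lower (12%). After lowess centring those of all members, fast, slow and nonmuscle genes were 0.01, -0.23, 0.02 and 0.54, with 5 members 1.5-fold lower (12.9%). With the floor at the 25th percentile 14 members were 1.5-fold higher (18.4%), 6 1.5-fold lower (15.9%) and 3 2-fold higher (6.95%). With none these were 14 (21.8%), 7 (19.0%) and 4 (11.4%), and 2 were 2-fold lower (9.29%). These settings admit more dim genes. With the floor at the 75th percentile the cardiac median was 0.39 over 3 genes, and 0 members were 1.5-fold lower (13.1%) and 0 2-fold higher (0.919%). The nonmuscle median was 0.51 as a mean over probe sets, and the cardiac median 0.25 over 4 genes without shared probes. Of the 51 measured members 17 turned their direction under at least 1 of the scalings (centring, quantile or lowess). How many of all genes did so was not counted. Of the members and further muscle genes, none past 1.5-fold as deposited turned under any setting that measured it. That was largely fixed in advance. A floor or pseudocount cannot turn a probe set, and centring shifted the median of all genes by only -0.11. No paired analysis was possible because each group has 1 array, and no replicate could be left out. Signals near the floor limit the regulators most.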
